A study of Mus musculus with 12 samples.

Results

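Cytokine-inducible SH2 protein (Cish), the suppressors of cytokine signalling Socs1, Socs2 and Socs3, the transcription factors Stat3, Stat5a and Stat5b, the kinase Pim1 and the survival gene Bcl2l1 were followed in cultures of mouse marrow with and without GM-CSF. The genes were taken by symbol, and all 9 were found among the 46072 genes measured. RNA was sequenced from 12 libraries, 4 of each of 3 cell types, grown from C57BL/6J mice aged 6 to 8 weeks. Immature dendritic cells were cultured with GM-CSF at 20 ng/ml. Osteoclasts, the bone-resorbing cells, received M-CSF at 30 ng/ml together with RANKL at 50 ng/ml and were cleared of mononucleated cells with Accutase. Macrophages received M-CSF at 30 ng/ml. For osteoclasts and macrophages, marrow precursors had first spent 5 days in M-CSF at 100 ng/ml, and differentiation took 8 to 10 days. Per the labels, the 3 cultures of an experiment came from the same mouse, in 4 separate marrow extractions. Dendritic cells differ from the other cultures at once in cell type, plating, GM-CSF, lack of M-CSF and the precursor stage, listed for the others alone. These cannot be told apart.

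GM-CSF binds a receptor made of its own alpha chain and a beta chain shared with interleukin-3 and interleukin-5. The receptor-bound kinase JAK2 then phosphorylates STAT5, which moves to the nucleus and binds the motif TTCNNNGAA at its target genes. Cish, Socs2, Pim1 and Bcl2l1 are textbook STAT5 targets, and the CIS and SOCS proteins in turn damp receptor signalling. M-CSF signals through a receptor tyrosine kinase, and RANKL through TNF receptor-associated factors.

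Levels are mean normalised counts, that is, reads divided by a size factor for each library and averaged by the authors over the 4 libraries of a cell type. A gene was called where the authors' Benjamini-Hochberg adjusted p was under 0.05, and DESeq2 is among the tools of the submitters' processing notes. Each log2 fold change stands with ± a standard error worked back from its p-value. The means summed to 27731759 in dendritic cells, 24242540 in osteoclasts and 25022062 in macrophages, and the 12 size factors ran from 0.975 to 1.04. Each mean is a sum of whole reads over 4 size factors, so the reads of single libraries could be worked back for genes with low means. These libraries carry letters, a to d by size factor, that cannot be tied to experiments. By the authors' deposited table, 11 of 11 dendritic cell markers were called higher in dendritic cells than in macrophages (20.3% of all genes). For osteoclast markers, 10 of 10 were called higher in osteoclasts than in macrophages (14.5% of all genes). In dendritic cells 6 of these 10 were also called higher than in macrophages, and 7 lower than in osteoclasts (16.8% of all genes). Of 9 macrophage markers, 6 were called lower in dendritic cells than in macrophages (16.4% of all genes). Against osteoclasts 3 were higher and 4 lower (20.1% and 16.8%). In bulk samples, fewer cells of a type and less RNA per cell cannot be told apart.

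Promoter windows are shown for Cish and Socs3, which hold the motif that STAT5 reads, and for Socs1, which rose with them. They come from RefSeq (GRCm38.p6) and run from 250 bases before an annotated start, with 50 bases from the start on. The motif TTCNNNGAA is palindromic in its fixed letters, so each match counts for both strands. The Cish window (chr9:107296409-107296708, plus strand) held 2 matches, in capitals, whose first bases are at 0 and 11 from the start. The Socs3 window (chr11:117969317-117969616, minus strand) held 1, whose first base is at −154. In the Socs1 window (chr16:10785487-10785786, minus strand) there was none.
Cish: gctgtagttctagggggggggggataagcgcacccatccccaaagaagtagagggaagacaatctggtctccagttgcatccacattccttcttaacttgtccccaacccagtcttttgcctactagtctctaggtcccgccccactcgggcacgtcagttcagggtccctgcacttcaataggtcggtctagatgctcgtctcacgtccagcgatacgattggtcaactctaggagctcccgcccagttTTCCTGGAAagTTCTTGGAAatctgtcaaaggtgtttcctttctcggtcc
Socs3: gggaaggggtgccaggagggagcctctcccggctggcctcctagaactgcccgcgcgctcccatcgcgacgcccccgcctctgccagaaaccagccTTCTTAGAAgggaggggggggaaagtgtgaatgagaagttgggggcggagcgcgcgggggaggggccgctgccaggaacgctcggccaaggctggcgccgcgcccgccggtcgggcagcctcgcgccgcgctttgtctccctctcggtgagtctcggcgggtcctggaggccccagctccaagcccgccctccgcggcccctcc
Socs1: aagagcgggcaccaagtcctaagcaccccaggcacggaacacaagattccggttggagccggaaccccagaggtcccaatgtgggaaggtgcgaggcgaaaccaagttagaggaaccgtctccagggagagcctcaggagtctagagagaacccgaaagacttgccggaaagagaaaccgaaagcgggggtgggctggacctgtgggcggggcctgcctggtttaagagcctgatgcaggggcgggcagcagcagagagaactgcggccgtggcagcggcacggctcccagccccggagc
Of 32851 windows of 300 bases in the RefSeq set, 8.30% held at least 1 match and 0.457% held 2 or more. The windows of Pim1, Bcl2l1, Stat3, Stat5a and Stat5b held none of these letters, and Socs2 was not matched. A match is a description and not a binding site.

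In dendritic cells against macrophages, 7 of the 9 genes were called higher and 1 lower by the authors' deposited table. Of 20730 genes tested there, the authors' deposited table calls 20.3% higher and 16.4% lower (4212 and 3396 genes, and 3459 and 4623 with the summed means of the cell types made equal). Against osteoclasts, 8 of 9 were called higher in dendritic cells and 0 lower in the authors' deposited table, and at an unadjusted p under 0.05 the counts were 9 and 0. Of 21217 genes tested there, the authors' deposited table calls 20.1% higher and 16.8% lower (4275 and 3554 genes, and 3341 and 5321 with summed means made equal). The median log2 fold change of the 9 genes in the authors' deposited table was 3.51 over macrophages and 2.68 over osteoclasts, and that of all genes tested was 0.05 in both. In osteoclasts against macrophages, 1 of 9 was called higher and 3 lower, where the authors' deposited table calls 14.5% of 17822 genes higher and 14.7% lower. That split was 2 and 2 with summed means made equal. The comparisons share libraries, so the values of each gene are given side by side. Cish, Socs1, Socs2, Socs3 and Pim1 had log2 fold changes in the authors' deposited table of 2.68 ± 0.38 or more in both dendritic cell comparisons, and the other 4 genes had 1.37 ± 0.12 or less.

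**Figure D1:**
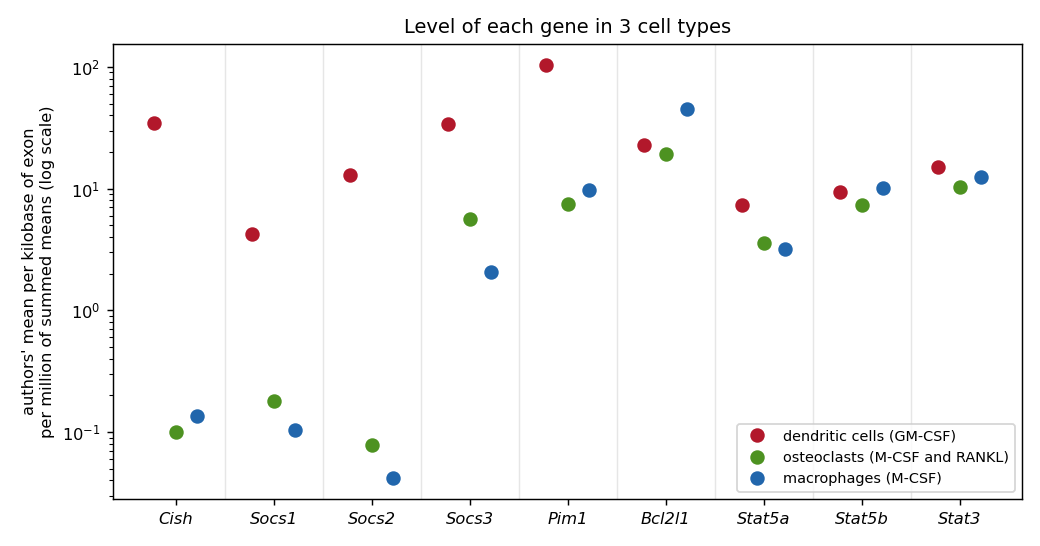
Authors' mean of each gene in dendritic cells, osteoclasts and macrophages, per kilobase of exon and per 1000000 of the summed means (log axis, 1 point per cell type, no error since the table holds means). Cish, Socs1 and Socs2 lie between 4.27 and 34.8 in dendritic cells and at 0.180 or below in both other cell types.

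Cish, which encodes an SH2-domain inhibitor induced by STAT5, was nearly off in both M-CSF cultures. For Cish the authors' deposited table lists a mean of 6202 in dendritic cells, 15.5 in osteoclasts and 21.8 in macrophages. Osteoclast libraries a to d held 8, 14, 23 and 17 reads of Cish, and macrophage libraries held 17, 23, 19 and 31. Both sets of libraries overlapped, with 15.5 ± 6.15 normalised reads in osteoclasts and 21.8 ± 5.77 in macrophages (SD, n = 4 each). At the height of the dendritic cell mean, single libraries could not be worked back. On the log2 scale Cish was higher in dendritic cells by 8.08 ± 0.22 (adjusted p = 2.7e-293) over macrophages and by 8.55 ± 0.24 (adjusted p = 2.1e-276) over osteoclasts in the authors' deposited table. By p-value in the authors' deposited table it ranked 3 among 4212 genes called higher than in macrophages and 6 among 4275 called higher than in osteoclasts, and by fold change it ranked 93 and 50. For osteoclasts over macrophages, the authors' deposited table gives Cish −0.48 ± 0.28, with an adjusted p of 0.205, and the two-sided exact permutation test over libraries gave p = 0.229 (adjusted 0.244).

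Cish lies on chromosome 9 at 107296026 to 107302784 (GRCm38, plus strand). Gm17041, an antisense gene, covers 7.46% of its exon length, and the authors' deposited table gives it means of 1825 in dendritic cells, 4.99 in osteoclasts and 6.78 in macrophages. The library kit keeps strand, but the strand setting of the authors' counting was not stated, so reads from the shared stretch cannot be assigned to either gene. Of the stretches of 50 bases in Cish transcripts, 9.35% also occur in other genes.

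Socs2, best known for restraining growth hormone receptor signalling, had a similar shape. For Socs2 the authors' deposited table lists a mean of 3419 in dendritic cells, 18.0 in osteoclasts and 9.94 in macrophages. Osteoclast libraries a to d held 10, 19, 29 and 14 reads of Socs2, and macrophage libraries held 5, 11, 10 and 15. The highest macrophage library stood above 2 of the osteoclast libraries. Socs2 was higher in dendritic cells by 8.28 ± 0.29 (adjusted p = 5.1e-171) over macrophages and by 7.48 ± 0.26 (adjusted p = 3.6e-176) over osteoclasts, as log2 fold changes of the authors' deposited table. Osteoclasts over macrophages gave 0.81 ± 0.34, with an adjusted p of 0.0541 by the authors' deposited table, and 0.0435 when adjusted over genes with a mean of at least 10 alone. The exact permutation test gave p = 0.171 (adjusted 0.229).

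Socs1 encodes a protein that binds JAK kinases and blocks their active site. Its reads could be worked back in all 12 libraries. Dendritic cell libraries a to d had 445, 299, 230.0 and 403 normalised reads of Socs1, osteoclast libraries 8.06, 8.01, 15.9 and 18.9, and macrophage libraries 5.90, 8.77, 12.7 and 2.88. Every dendritic cell library was above every other library, while osteoclasts and macrophages overlapped. Means were 344 ± 97.8 in dendritic cells, 12.7 ± 5.53 in osteoclasts and 7.55 ± 4.17 in macrophages (SD, n = 4 each). In log2 units the authors' deposited table has Socs1 higher in dendritic cells by 5.35 ± 0.38 (adjusted p = 5.6e-44) over macrophages and by 4.65 ± 0.35 (adjusted p = 1.0e-38) over osteoclasts. Exact permutation tests gave p = 0.0286 against each, the smallest value that 4 libraries against 4 allow, and 0.0571 after adjustment over the 16 such tests. Osteoclasts over macrophages gave 0.71 ± 0.42 by the authors' deposited table, with an adjusted p of 0.21.

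Socs3 inhibits receptors of the gp130 and G-CSF type and is a classic STAT3 target. It was graded over the cell types. For Socs3 the authors' deposited table lists a mean of 2706 in dendritic cells, 397 in osteoclasts and 148 in macrophages. Osteoclast libraries a to d had 165, 305, 562 and 553 normalised reads of Socs3, and macrophage libraries 78.6, 212, 103 and 197. Osteoclast library a was below 2 of the macrophage libraries, and the spread was wide, at 397 ± 195 in osteoclasts and 148 ± 66.9 in macrophages (SD, n = 4 each). Log2 fold changes of Socs3 in the authors' deposited table were 4.05 ± 0.38 (adjusted p = 1.6e-24) for dendritic cells over macrophages and 2.68 ± 0.38 (adjusted p = 2.7e-11) over osteoclasts. Of the 9 genes, Socs3 was the 1 called higher in osteoclasts than in macrophages, by 1.37 ± 0.39 (adjusted p = 0.00234) in the authors' deposited table. The exact permutation test over libraries gave p = 0.0857 for that difference (adjusted 0.137).

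Pim1, a serine/threonine kinase that promotes survival and growth, had the highest level per length of the 9 genes in dendritic cells, at 104 per kilobase and 1000000 of summed means. For Pim1 the authors' deposited table lists a mean of 9726 in dendritic cells, 612 in osteoclasts and 826 in macrophages. Osteoclast libraries a to d had 522, 384, 785 and 756 normalised reads of Pim1, and macrophage libraries 634, 757, 807 and 1107. These overlapped, at 612 ± 192 in osteoclasts and 826 ± 201 in macrophages (SD, n = 4 each). Pim1 was higher in dendritic cells by 3.51 ± 0.24 (adjusted p = 1.7e-45) over macrophages and by 3.94 ± 0.24 (adjusted p = 7.0e-57) over osteoclasts, on the log2 scale of the authors' deposited table. Between osteoclasts and macrophages it gave −0.43 ± 0.24 by the authors' deposited table, with an adjusted p of 0.19. An antisense gene, Gm26885, covers 14.5% of the Pim1 exon length and had means in the authors' deposited table of 1.79 in dendritic cells, 0 in osteoclasts and 0.243 in macrophages. Unlike Cish, Socs1 and Socs2, Pim1 was well detected in all 3 cell types.

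Bcl2l1, which encodes the anti-apoptotic protein Bcl-xL, did not follow Cish, Socs2 and Pim1 and was highest in macrophages. For Bcl2l1 the authors' deposited table lists a mean of 2888 in dendritic cells, 2124 in osteoclasts and 5190 in macrophages. It fell by 0.84 ± 0.19 on the log2 scale in dendritic cells relative to macrophages by the authors' deposited table (adjusted p = 7.2e-05). In osteoclasts the authors' deposited table gives it −1.28 ± 0.19 (adjusted p = 9.7e-10) over macrophages. Dendritic cells over osteoclasts gave 0.44 ± 0.19 with an adjusted p of 0.0596 by the authors' deposited table, and 0.0441 when adjusted over genes with a mean of at least 10. Per length, Bcl2l1 was the highest of the 9 genes in osteoclasts (19.1) and in macrophages (45.2), and stood at 22.7 in dendritic cells, behind Pim1, Cish and Socs3.

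**Figure D2:**
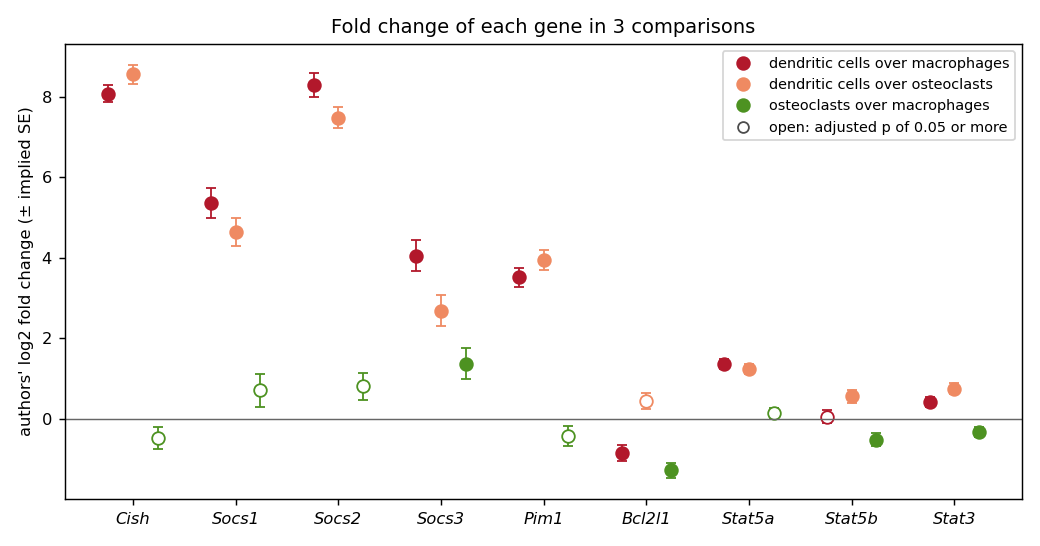
Authors' log2 fold change of each gene with its standard error, for dendritic cells over macrophages, dendritic cells over osteoclasts and osteoclasts over macrophages; filled points were called at an adjusted p under 0.05. Cish and Socs2 have the highest values in both dendritic cell comparisons, Bcl2l1 is below 0 over macrophages, and Socs3 is the filled point above 0 for osteoclasts over macrophages.

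**Figure D3:**
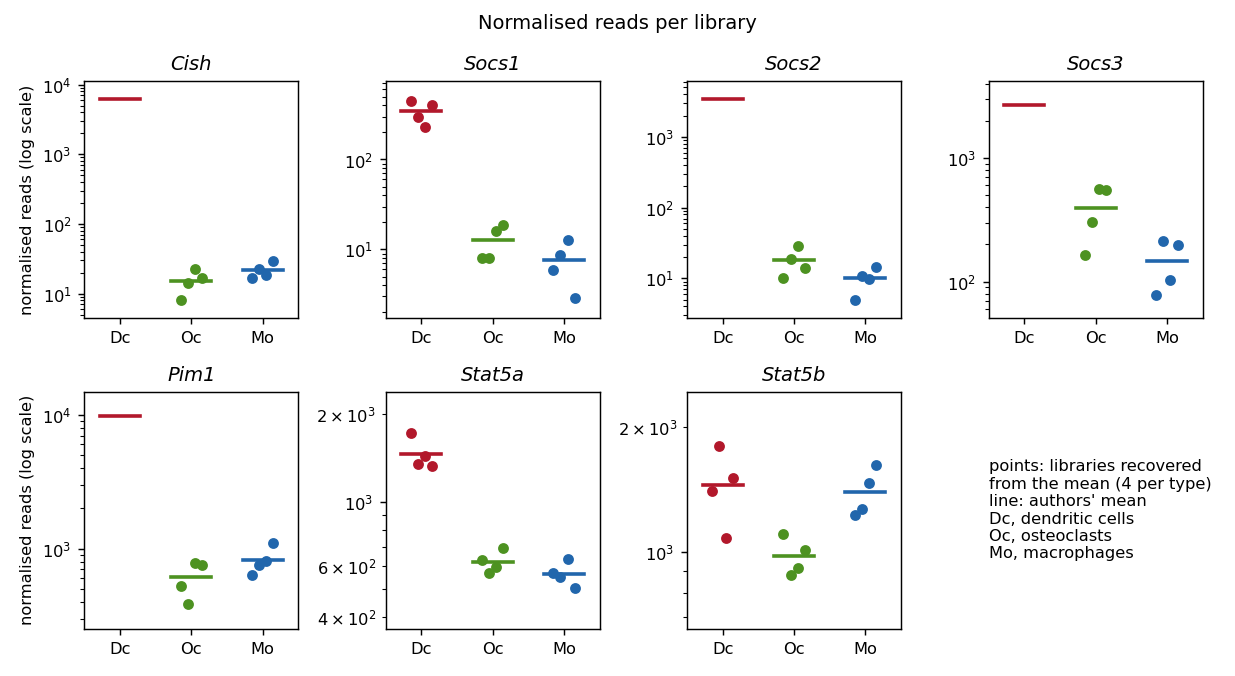
Normalised reads per library (log axis) for the 7 genes with reads worked back, by cell type; points are libraries, lines are the authors' means, and a line without points marks a mean too high to work back. Dendritic cell libraries lie above all others for Socs1 and Stat5a, and osteoclast and macrophage libraries overlap in every panel but that of Stat5b. Keeping the combination of reads within 2-fold fixed the Stat5a separation in advance, and the Stat5b separation depends on the same choice.

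The STAT genes had log2 fold changes of 1.37 or less in size in the authors' deposited table. Stat5a and Stat5b are neighbouring paralogues on chromosome 11, Stat5a at 100859351 to 100885169 (plus strand) and Stat5b at 100780731 to 100850724 (minus strand) in GRCm38, with 8626 bases between them. For Stat5a the authors' deposited table lists a mean of 1463 in dendritic cells, 621 in osteoclasts and 564 in macrophages. Dendritic cell libraries a to d had 1731, 1348, 1439 and 1333 normalised reads of Stat5a, osteoclast libraries 631, 567, 594 and 693, and macrophage libraries 570.0, 549.6, 633 and 504. No dendritic cell library overlapped the others, and osteoclasts and macrophages overlapped. For dendritic cells the reads are the combination kept because its libraries lay within 2-fold of each other. At a mean of 1463 that rule leaves no room for overlap with the other libraries, so the separation was fixed in advance. Stat5a was higher in dendritic cells by 1.37 ± 0.12 (adjusted p = 1.1e-26) over macrophages and by 1.23 ± 0.12 (adjusted p = 8.8e-22) over osteoclasts, in log2 units of the authors' deposited table. Exact permutation tests gave p = 0.0286 for both, and 0.0571 after adjustment, but the same rule fixed these results, so they add no support. Osteoclasts over macrophages gave 0.14 ± 0.13 by the authors' deposited table, with an adjusted p of 0.459.

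Stat5b did not follow its paralogue. For Stat5b the authors' deposited table lists a mean of 1451 in dendritic cells, 979 in osteoclasts and 1399 in macrophages. Dendritic cell libraries a to d had 1405, 1807, 1086 and 1507 normalised reads of Stat5b, osteoclast libraries 1106, 882, 916 and 1011, and macrophage libraries 1233, 1272, 1469 and 1623. The range of the dendritic cell libraries held that of the macrophage libraries, and all osteoclast libraries were below all macrophage libraries. For dendritic cells and macrophages these reads are the tightest of several combinations, a choice that favours separation. Dendritic cells over macrophages gave 0.05 ± 0.16 by the authors' deposited table (95% interval −0.27 to 0.37, adjusted p = 0.856), and the sign turned with other scalings, to −0.10 with summed means made equal and −0.023 with upper quartiles made equal. Over osteoclasts Stat5b was called higher in dendritic cells by 0.56 ± 0.16 (adjusted p = 0.00246), a call of the authors' deposited table lost with summed means made equal (adjusted p = 0.0586). Osteoclasts over macrophages gave −0.51 ± 0.16 (adjusted p = 0.00921) by the authors' deposited table. Exact permutation tests gave p = 0.0571 (adjusted 0.102) for dendritic cells against osteoclasts, which overlapped, and 0.0286 (adjusted 0.0571) for osteoclasts against macrophages. Both p-values depend on that choice of combination.

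The ratio of Stat5a to Stat5b within a library does not depend on scaling between libraries. Per exon length it was 0.957, 0.58, 1.03 and 0.687 in dendritic cell libraries a to d, 0.443, 0.499, 0.504 and 0.532 in osteoclast libraries, and 0.359, 0.336, 0.335 and 0.241 in macrophage libraries. The cell types did not overlap, at 0.813 ± 0.214 in dendritic cells, 0.494 ± 0.0375 in osteoclasts and 0.318 ± 0.0521 in macrophages (SD, n = 4 each). The ratio was taken up after its values had been seen, so this is a description and no test of it is given. For Stat5a in dendritic cells, and for Stat5b in dendritic cells and macrophages, 2, 2 and 3 combinations of whole reads gave the listed mean. The combination with all libraries within 2-fold of each other was used, since the next had spreads of at least 4.72-fold. Stretches of 50 bases found in both genes made up 8.21% of those of Stat5a and 608 of 5535 of those of Stat5b, and how reads that match both were counted was not stated.

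**Figure D4:**
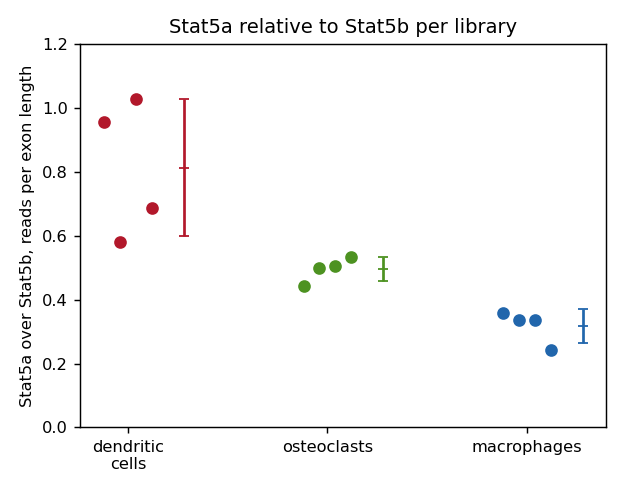
Ratio of Stat5a to Stat5b reads, each divided by exon length, in the 12 libraries (points) with the mean and SD of each cell type (n = 4). Dendritic cell libraries lie at 0.580 and above, osteoclast libraries from 0.443 to 0.532, and macrophage libraries at 0.359 and below.

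Stat3, which carries signals of interleukin-6 and interleukin-10, was modestly higher in dendritic cells. For Stat3 the authors' deposited table lists a mean of 4000 in dendritic cells, 2366 in osteoclasts and 2980 in macrophages. In log2 units the dendritic cell value was 0.42 ± 0.13 (adjusted p = 0.00334) over macrophages and 0.76 ± 0.13 (adjusted p = 2.5e-08) over osteoclasts by the authors' deposited table. For osteoclasts over macrophages the authors' deposited table gives −0.33 ± 0.13 (adjusted p = 0.0341). With summed means made equal, both calls against macrophages were lost (adjusted p = 0.0738 for dendritic cells and 0.0748 for osteoclasts). Stat3 and Stat5a share 72 bases of exon on opposite strands. Per length, the 9 genes ran from high to low in dendritic cells as Pim1, Cish, Socs3, Bcl2l1, Stat3, Socs2, Stat5b, Stat5a and Socs1. In macrophages the order was Bcl2l1, Stat3, Stat5b, Pim1, Stat5a, Socs3, Cish, Socs1 and Socs2.

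Other genes of the pathway, 78 in all, were counted by role. In dendritic cells against macrophages, by the authors' deposited table, 27 were called higher and 23 lower, where 20.3% and 16.4% of all genes were, and the median log2 fold change was 0.07. With summed means made equal the counts were 25 and 27, so the larger side turned. Against osteoclasts the authors' deposited table has 37 higher and 13 lower, where 20.1% and 16.8% of all genes were, with a median of 0.34. The counts were 32 and 19 with summed means made equal. In osteoclasts against macrophages the authors' deposited table has 9 of 77 tested higher and 25 lower, where 14.5% and 14.7% of all genes were.

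Of 13 receptors and kinases, 5 were called higher and 3 lower in dendritic cells than in macrophages by the authors' deposited table (20.3% and 16.4% of all genes), and 7 and 0 than in osteoclasts (20.1% and 16.8%). For Csf2rb, the shared beta chain of the GM-CSF receptor, the authors' deposited table lists a mean of 75482 in dendritic cells, 11853 in osteoclasts and 7712 in macrophages. Its log2 fold change there, in the authors' deposited table, was 3.23 ± 0.29 (adjusted p = 1.1e-26) over macrophages and 2.62 ± 0.29 (adjusted p = 7.9e-18) over osteoclasts. Csf2rb2, the closely similar chain specific to interleukin-3 in mice, could share reads with it. Jak2 had means of 12829 in dendritic cells, 1823 in osteoclasts and 1274 in macrophages and was higher by 3.30 ± 0.20 (adjusted p = 7.1e-58) over macrophages and 2.79 ± 0.20 (adjusted p = 1.4e-41) over osteoclasts in the authors' deposited table. Jak1, another receptor-bound kinase, gave 0.03 ± 0.13 (adjusted p = 0.909) over macrophages and 0.35 ± 0.13 (adjusted p = 0.0262) over osteoclasts by the authors' deposited table. By the log2 values of the authors' deposited table, the M-CSF receptor Csf1r fell by 1.12 ± 0.18 and the G-CSF receptor Csf3r fell by 1.38 ± 0.34 in dendritic cells relative to macrophages. Against osteoclasts the authors' deposited table has Csf3r higher in dendritic cells, by 1.87 ± 0.35 (adjusted p = 5.7e-07), and Csf1r at −0.23 ± 0.18 (adjusted p = 0.367).

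Among 4 other STAT genes in the authors' deposited table, 0 were called higher and 1 lower in dendritic cells than in macrophages (20.3% and 16.4% of all genes). Than in osteoclasts, 3 were higher and 0 lower (20.1% and 16.8%). Stat6, which serves interleukin-4, was the 1 called against macrophages and fell by 0.36 ± 0.09 in dendritic cells. Stat2, of interferon signalling, was by the authors' deposited table higher in dendritic cells than in osteoclasts by 1.57 ± 0.20. Of 4 other SOCS genes, 1 was called higher and 1 lower in dendritic cells than in macrophages by the authors' deposited table, near the shares of all genes (20.3% and 16.4%). The counts were 2 and 1 than in osteoclasts (20.1% and 16.8% of all genes). Socs5 fell by 1.34 ± 0.15 in dendritic cells relative to macrophages and by 1.32 ± 0.15 relative to osteoclasts in the authors' deposited table. Socs6 was by the authors' deposited table higher by 0.83 ± 0.20 and 1.79 ± 0.20 in the same comparisons, and Socs4 by 0.41 ± 0.17 over osteoclasts. Pim3, a relative of Pim1, was higher by 1.68 ± 0.29 over macrophages and 0.82 ± 0.29 over osteoclasts, all on the log2 scale of the authors' deposited table.

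Of 16 genes listed as negative regulators outside the SOCS family, 3 were called higher and 7 lower in dendritic cells than in macrophages (20.3% and 16.4% of all genes). Than in osteoclasts, 4 were higher and 6 lower (20.1% and 16.8%), by the authors' deposited table. The list is broad and takes in Ptpn11, Elob, Eloc, Cul5, Rnf7 and Ube2d1, so these are not counts of inhibitors alone. Ptpn1 and Ptpn2, phosphatases of JAK and STAT proteins, were higher by 1.35 ± 0.19 and 1.40 ± 0.11 over macrophages and by 1.84 ± 0.19 and 1.04 ± 0.11 over osteoclasts (log2, the authors' deposited table). Sh2b3, the adaptor LNK that restrains JAK2, fell by 1.12 ± 0.08 and Pias3, a STAT3 inhibitor, fell by 0.79 ± 0.10 relative to macrophages (log2 values of the authors' deposited table).

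Of 21 further STAT5 target genes, 12 were called higher and 5 lower in dendritic cells than in macrophages, and 12 and 4 than in osteoclasts, by the authors' deposited table, beside 20.3% and 16.4%, and 20.1% and 16.8%, of all genes. The list does not separate targets that STAT5 raises from those it lowers, so these counts do not measure STAT5 activity. The survival genes Bcl2a1a and Bcl2a1d were higher by 8.76 ± 0.56 and 5.79 ± 0.40 over macrophages (log2 values of the authors' deposited table). They belong to a family of near-identical copies, so the split of reads among them is uncertain. For Ccnd2, a D-type cyclin, the authors' deposited table lists means of 12616 in dendritic cells, 73.0 in osteoclasts and 2604 in macrophages. Ccnd1, another D-type cyclin, ran the other way, and the authors' deposited table lists means of 3541 in dendritic cells, 16470 in osteoclasts and 30509 in macrophages. Bcl6, a transcriptional repressor, fell by 1.95 ± 0.19 relative to macrophages, and Fos, an AP-1 subunit, fell by 4.24 ± 0.41 relative to osteoclasts (log2 values of the authors' deposited table). Of 10 adaptors and parallel branches, 3 were higher and 4 lower than in macrophages (20.3% and 16.4% of all genes), and the authors' deposited table puts the phosphoinositide 3-kinase subunit Pik3cd higher by 1.93 ± 0.18.

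**Figure D5:**
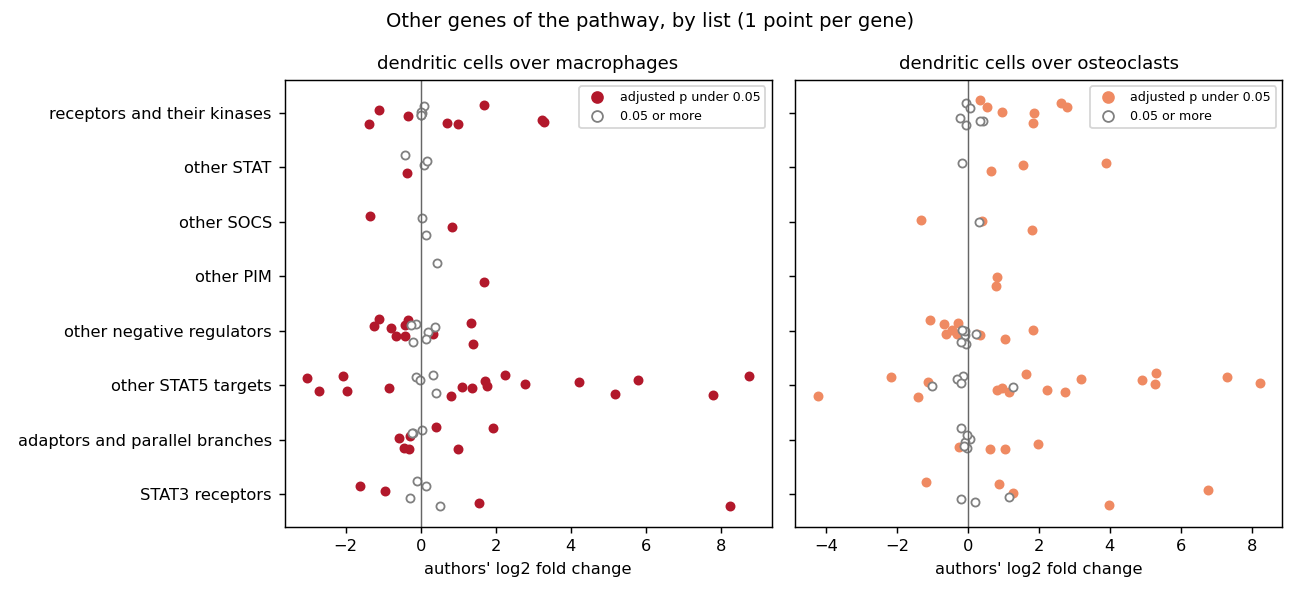
Authors' log2 fold change of the other pathway genes by list, for dendritic cells over macrophages and over osteoclasts, with filled points at an adjusted p under 0.05. Over macrophages the further STAT5 targets run from −3.04 (Ccnd1) to 8.76 (Bcl2a1a), and the other STAT and SOCS genes from −1.34 (Socs5) to 0.83 (Socs6).

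Among 10623 genes with a mean of at least 100 in 1 cell type, the 5 nearest to Cish by their log2 ratios of means over the 3 cell types were Ikzf4, Il1a, B3galt2, Mgll and Klk1b11. Their distances ran from 0.131 to 0.298 log2 units. Ikzf4 had means in the authors' deposited table of 285 in dendritic cells, 0.747 in osteoclasts and 0.970 in macrophages, and B3galt2 of 342 in dendritic cells, 0.754 in osteoclasts and 1.22 in macrophages, so their ratios rest on few reads in both M-CSF cultures. Il1a, which encodes the cytokine interleukin-1 alpha, had in the authors' deposited table means of 5780 in dendritic cells, 12.5 in osteoclasts and 18.0 in macrophages. Mgll, a lipase of monoacylglycerols, had means in the authors' deposited table of 7017 in dendritic cells, 22.4 in osteoclasts and 28.2 in macrophages. Klk1b11 belongs to a cluster of near-identical kallikrein genes, so its value is uncertain.

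Markers of other blood cells also differed between the cultures. Neutrophil markers were called higher in dendritic cells than in macrophages in 10 of 12 cases and lower in 1 (20.3% and 16.4% of all genes). Their means in the authors' deposited table summed to 33443 in dendritic cells, 593 in osteoclasts and 1529 in macrophages. By the authors' deposited table, Mmp8 (18254) and S100a8 (4302) were the highest of them in dendritic cells. Eosinophil markers in the authors' deposited table summed to 8234 in dendritic cells, 398 in osteoclasts and 181 in macrophages, led by Prg2 (4431) and Siglecf (2609) in dendritic cells. Of these 5 markers, 4 were called higher and 1 lower in dendritic cells than in macrophages (20.3% and 16.4% of all genes). Ccr3 was the 1 called lower, with means of 48.0 in dendritic cells and 126 in macrophages. Mast cell and basophil markers in the authors' deposited table summed to 975 in dendritic cells, 13.7 in osteoclasts and 12.2 in macrophages, led by Cpa3 (348) and Gata2 (231). T and NK cell markers in the authors' deposited table summed to 45.7 in dendritic cells, 73.8 in osteoclasts and 10.7 in macrophages, B cell markers to 336 in dendritic cells, 68.1 in osteoclasts and 939.7 in macrophages, erythroid markers to 3.57 in dendritic cells, 0.997 in osteoclasts and 2.19 in macrophages, and stromal markers to 953 in dendritic cells, 16.7 in osteoclasts and 18.2 in macrophages. Lepr in the authors' deposited table made up 889 of the stromal sum in dendritic cells. Ncr1 of the T and NK cell list, and Hbb-bs and Hba-a2 of the erythroid list, had means of 0 in dendritic cells by the authors' deposited table. Other members of these lists were above 0. Of 4 T and NK cell markers tested against macrophages, 2 were called higher and 0 lower (20.3% and 16.4% of all genes). These were Klrb1c (28.8 in dendritic cells and 4.63 in macrophages) and Nkg7 (6.64 and 0). Macrophage markers in the authors' deposited table summed to 78787 in dendritic cells, 120451 in osteoclasts and 227239 in macrophages, and osteoclast markers to 41774 in dendritic cells, 332013 in osteoclasts and 6137 in macrophages. The part of such cells in the Cish, Socs and Pim1 values was not tested.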

How the data were processed

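The deposited table holds 3 pairwise comparisons of the authors over 46072 genes, and no column for a single library. Its means, deposited by the authors, are counts divided by size factors and averaged over 4 libraries, as the values show. Its log2 fold changes, also deposited by the authors, were turned round where dendritic cells were the lower term. Standard errors come from the deposited p-values of the authors, taken as two-sided Wald p-values, an inference. Per the submitters' processing notes DESeq2 2.13, Cufflinks 2.1.1, TopHat2, Bowtie2 and bcl2fastq were used with GRCm38. Annotation, filters, strand setting and the role of each tool were not stated. Symbols matched 45138 of 46072 genes, and exon lengths are from GENCODE M21.

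The planned count tests per library could not be run, so calls are the authors' own at an adjusted p under 0.05. Whole reads per library were worked back from means printed to 15 digits, with exactly 1 solution required under a mean of 1000. Up to 1500, libraries had to lie within 2-fold, a rule chosen after seeing the data. The step was tested on simulated data with means under 1000 alone, so the 2-fold rule was not tested. Exact permutation tests (scipy, two-sided) were adjusted over 16 tests by Benjamini-Hochberg. These include tests of the Stat5a to Stat5b ratio, added after its values were seen, whose results are not given. They still entered the adjustment with the smallest p possible, so adjusted values such as 0.0571 would be higher without them. The Stat5a tests of dendritic cells, whose results the 2-fold rule fixed, entered it as well. Reads carry no molecular identifiers.

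The 9 genes and all lists were chosen with earlier results of these data known. From each pathway list, per comparison, the 2 called genes of smallest p in either direction could be named, from marker lists the 2 highest, and by likeness the 5 genes nearest to Cish. Jak1, Csf2rb2, Gm17041, Gm26885, Lepr among the stromal markers, Nkg7, Klrb1c, Ccr3 and the markers at 0 were named after their values were seen. Some items are not reported here. Alternatives were a stricter threshold, other adjustments and scalings, and each library left out.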

Additional observations from a re-analysis of the deposited data

How the results depend on the processing

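With summed means made equal, log2 fold changes shifted by −0.15 for dendritic cells over macrophages, −0.19 for dendritic cells over osteoclasts and 0.05 for osteoclasts over macrophages. All genes called in dendritic cells over macrophages then divided into 3459 higher and 4623 lower, in place of 4212 and 3396, and over osteoclasts into 3341 and 5321, in place of 4275 and 3554. Stat5b over macrophages, which was not called, turned to −0.10 with summed means made equal and −0.023 with upper quartiles made equal. The count of the 9 genes called higher in osteoclasts than in macrophages was 2 in place of 1 with summed means made equal and with adjustment over genes with a mean of at least 10, in both cases through Socs2 (adjusted p under these alternatives 0.0391 and 0.0435, where the authors' own is 0.0541). Stat3 in osteoclasts over macrophages missed the stricter threshold of 0.01. The other counts of calls stayed within 1.5 times under the alternatives tried. Leaving out each library in turn moved none of the 17 means that could be worked back by over 1.5 times, and Socs1 in macrophages ran from 5.85 to 9.11. Counts of calls could not be recomputed without a library. No paired analysis was possible because the table has no column for a labelled library, and the libraries worked back carry no experiment number. With 4 libraries against 4, no exact test can go below 0.0286.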

Other observations

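Of 8 receptors that signal through STAT3, 2 were called higher and 2 lower in dendritic cells than in macrophages by the authors' deposited table, and 4 higher and 1 lower than in osteoclasts. Over all genes these shares were 20.3% and 16.4%, and 20.1% and 16.8%. For Lepr, the leptin receptor, the authors' deposited table lists means of 889 in dendritic cells, 5.00 in osteoclasts and 1.21 in macrophages. Lifr, the receptor of leukaemia inhibitory factor, had by the authors' deposited table means of 451 in dendritic cells, 26.3 in osteoclasts and 313 in macrophages. Il10rb, a chain of the interleukin-10 receptor, fell by 1.62 ± 0.10 on the log2 scale in dendritic cells relative to macrophages and by 1.17 ± 0.10 relative to osteoclasts, by the authors' deposited table. Il6ra, the interleukin-6 receptor, fell by 0.94 ± 0.22 relative to macrophages in the authors' deposited table.

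In osteoclasts over macrophages, Lif, the ligand of Lifr, stood 6.59 ± 0.53 log2 units higher by the authors' deposited table (adjusted p = 5.5e-33). Ccnd2 fell by 5.07 ± 0.27, and Irf8, a transcription factor of myeloid cells, fell by 1.79 ± 0.20 in osteoclasts relative to macrophages in the authors' deposited table.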
